A study of Sus scrofa and Rattus norvegicus with 8 samples.

Results

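The genes examined here are the markers by which the endothelial cells of blood vessels are recognised in a tissue, together with the growth factor VEGFA, in the backfat of pigs. They were chosen by symbol: 10 genes were listed, of which 9 are made chiefly by endothelial cells, and 8 of the 10 had a value among the 25880 gene IDs of the pig table, 14857 of which carry a symbol. VWF and CLDN5 had no value under this rule and were not analysed here, which left 7 endothelial markers (PECAM1, CDH5, EMCN, TEK, KDR, ESAM and ERG) and VEGFA. VEGFA is not an endothelial marker, since it is secreted by many cell types and acts on endothelium, so it was kept apart from every median and count over the markers.

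The series holds 8 rRNA-depleted, strand-specific RNA-seq libraries of white fat. Of these 6 are from female Bama pigs of 2 years, sampled from the upper layer of the subcutaneous backfat, and the study's methods describe them as separate animals. The other 2 are pools of female SD rats of 32 weeks, taken from the inguinal white adipose depot, and were not used here. No treatment or genotype separated the pigs, so the 6 libraries formed 1 group and no test between groups was made: errors are SD over the 6 pigs.

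Endothelial cells line every vessel, and those of fat capillaries also pass fatty acids from the blood to adipocytes. They are held together by CDH5 (VE-cadherin), PECAM1 and ESAM, they carry the sialomucin EMCN on their surface, and the ETS-family transcription factor ERG maintains their identity. Vessel growth is driven by VEGFA through the receptor KDR (VEGF receptor 2), and vessel stability is set by angiopoietins through the receptor TEK (Tie2).

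The promoters of 2 genes are shown, because KDR and TEK stood furthest above the other libraries in 1 animal. Each is the 250 bases before the annotated start of the gene in the RefSeq annotation of Sscrofa11.1, the assembly that the study used, and reads 5' to 3' on the strand of the gene. Capitals mark GGAAG or its reverse complement CTTCC, 1 form of the GGAA core that ETS factors such as ERG recognise. Other copies of GGAA are left in small letters.
KDR, chr8:41856380-41856629, minus strand: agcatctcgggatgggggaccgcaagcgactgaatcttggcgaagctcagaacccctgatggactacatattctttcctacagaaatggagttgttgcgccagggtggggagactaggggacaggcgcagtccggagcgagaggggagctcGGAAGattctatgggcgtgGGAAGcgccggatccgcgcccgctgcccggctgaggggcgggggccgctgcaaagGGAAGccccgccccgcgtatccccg
TEK, chr1:196052295-196052544, minus strand: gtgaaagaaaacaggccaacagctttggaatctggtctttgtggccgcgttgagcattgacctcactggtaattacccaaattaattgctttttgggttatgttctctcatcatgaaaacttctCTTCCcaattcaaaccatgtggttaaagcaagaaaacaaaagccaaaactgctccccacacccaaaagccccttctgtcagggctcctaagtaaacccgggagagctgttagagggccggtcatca
KDR held 3 copies of GGAAG, starting 99, 80 and 25 bases before the start, and TEK held 1 copy on the other strand at 126 bases. GGAAG is short, and 61.6% of the 19556 protein-coding promoters of the same length held it on either strand. The longer form AGGAAGT was in neither of these windows and in 5.20% of all promoters. These matches describe the letters of the windows and nothing about binding.

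On this assembly KDR lies at chr8:41809116-41856379 and TEK at chr1:195938177-196052294, where a protein-coding gene on the opposite strand overlaps it. PECAM1 lies at chr12:14667643-14723296, overlapped on the opposite strand by a long noncoding RNA, and CDH5 lies at chr6:27108560-27142145. EMCN lies at chr8:120174091-120227971, ESAM at chr9:51983019-51992415, ERG at chr13:201999237-202302572 and VEGFA at chr7:38746393-38762282. Each value below is a gene-level sum, so it covers all exons and UTRs of the annotated transcripts and cannot be placed on one exon.

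Values were deposited as TPM, the length-corrected share of a library that each gene takes, so levels of different genes can be compared within a library, and the depth behind a value is unknown. The shares were not comparable as they stood. Nuclear genes with a symbol took 24.1 to 26.3% of TPM in replicates 1, 2, 3 and 6 but 3.34% in replicate 4 and 4.73% in replicate 5. All 8 genes were therefore also rescaled, so that the named nuclear genes of each library sum to 1000000, which multiplied TPM by 3.80 to 4.15 in those 4 libraries, by 29.9 in replicate 4 and by 21.1 in replicate 5.

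VEGFA, the ligand, had a rescaled TPM of 83.7 in replicate 1, 72.0 in replicate 2, 45.0 in replicate 3, 44.2 in replicate 4, 40.9 in replicate 5 and 49.2 in replicate 6. Its mean was 55.8 ± 17.6 (SD, n = 6). Replicates 1 and 2 stood above the other 4, and replicate 1 was at 1.70 times the median of replicates 2, 3 and 6.

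KDR, its receptor, had a rescaled TPM of 53.3, 113, 57.7, 40.4, 49.4 and 55.1 in replicates 1 to 6. Its mean was 61.4 ± 25.7 (SD, n = 6). Replicate 2 was at 2.04 times the median of replicates 1, 3 and 6, while the 5 other libraries lay between 40.4 and 57.7. TEK had a rescaled TPM of 52.6, 108, 46.1, 49.4, 62.2 and 51.0 in the same order, with a mean of 61.5 ± 23.3 (SD, n = 6). On this scale replicate 2 was again apart, at 2.11 times the median of replicates 1, 3 and 6. TEK differed from the other markers in that its lowest value was in replicate 3, and its mean over replicates 4 and 5 was 1.08 times the median of the other 4 libraries.

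PECAM1, an adhesion molecule that platelets and leukocytes also carry, was the most abundant marker, with a rescaled TPM of 783, 875, 771, 449, 563 and 841 in replicates 1 to 6. Its mean of 714 ± 169 (SD, n = 6) placed it at rank 157 of the named nuclear genes. In replicates 1, 2, 3 and 6 it lay between 771 and 875, a coefficient of variation (CV, SD over mean) of 0.0600. CDH5, the cadherin of endothelial adherens junctions, was at 158, 226, 160, 67.1, 61.1 and 168, with a mean of 140 ± 64.0 (SD, n = 6). It was the marker most reduced in replicates 4 and 5, whose mean was 0.391 times the median of the other 4 libraries. ESAM, a second adhesion molecule, was at 50.5, 87.3, 70.5, 47.8, 44.3 and 53.0, with a mean of 58.9 ± 16.6 (SD, n = 6). Replicate 2 was highest for all 3 adhesion genes on the rescaled values, by 1.65 times the median of replicates 1, 3 and 6 for ESAM, 1.42 times for CDH5 and 1.12 times for PECAM1.

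EMCN was at 95.8, 85.3, 61.5, 39.0, 44.0 and 85.5 in replicates 1 to 6, with a mean of 68.5 ± 23.8 (SD, n = 6). It was the 1 marker whose highest value was not in replicate 2, where it stood at 0.998 times the median of replicates 1, 3 and 6. ERG, the transcription factor, was the least abundant, at 40.1, 52.7, 43.0, 28.3, 27.6 and 47.4 with a mean of 39.9 ± 10.1 (SD, n = 6). Replicates 4 and 5 both lay below the 4 other libraries for 6 of the 7 markers and for VEGFA, the exception being TEK, whose value in replicate 5 was exceeded only by replicate 2. Low values there were common: of named nuclear genes averaging 1 or more rescaled TPM, 66.4% were lowest in replicate 4 or 5. The share of all genes with both libraries below the 4 others was not computed.

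**Figure D1:**
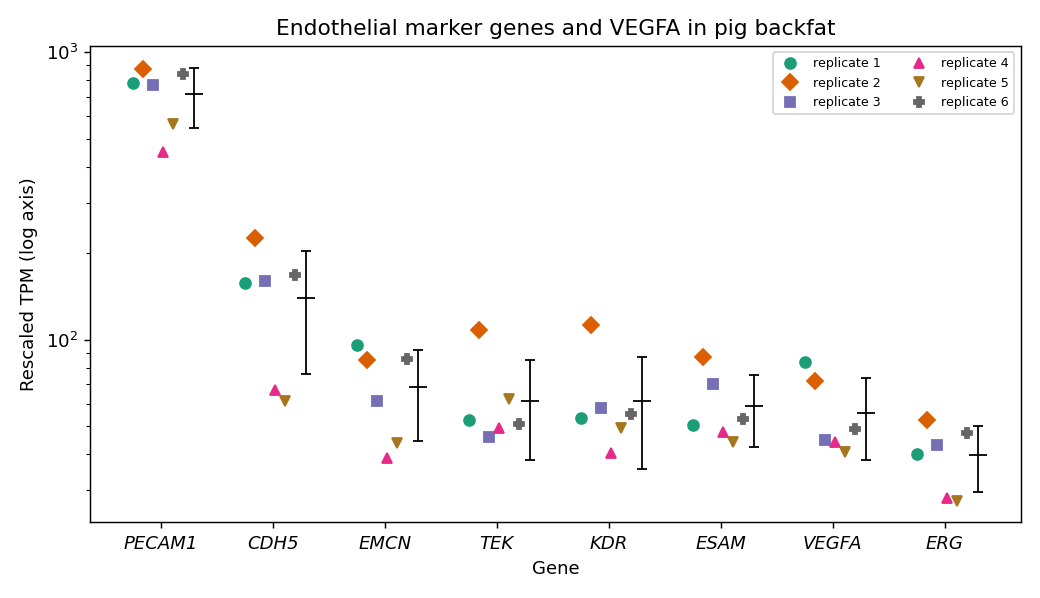
Rescaled TPM (log axis) of the 7 endothelial markers and VEGFA in the 6 pig libraries, each point 1 library, with the mean and SD beside it. PECAM1 lies between 449 and 875 and every other gene at or below 226, and the replicate 2 points of KDR (113) and TEK (108) stand apart from their other 5.

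By level, PECAM1 exceeded CDH5 in 6 of 6 libraries, by 3.86 to 9.22 times, and their ranges of 1 SD around the mean did not overlap. CDH5 exceeded EMCN in 6 of 6 libraries, by 1.39 to 2.65 times, although the 1-SD ranges overlapped. EMCN, TEK, KDR, ESAM and VEGFA formed a middle group in which no gene was above its neighbour in all 6 libraries and all 1-SD ranges overlapped. VEGFA exceeded ERG in 6 of 6 libraries, by 1.04 to 2.09 times, with overlapping ranges. PECAM1 made up 62.8% ± 3.32 (SD, n = 6) of the summed TPM of the 7 markers and CDH5 11.7% ± 2.82, while ERG made up 3.51% ± 0.263.

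As deposited, the same genes were low in the libraries where the share of named genes was low. PECAM1 had a TPM of 196, 211, 202, 15.0, 26.7 and 222 in replicates 1 to 6, a spread of 14.8 times between lowest and highest, against 1.95 times after rescaling. CDH5 had a TPM of 39.4, 54.6, 41.8, 2.24, 2.89 and 44.2, and KDR one of 13.3, 27.1, 15.1, 1.35, 2.34 and 14.5. All 8 genes were lowest in replicate 4 on this scale. The median of the 7 markers was 13.3, 26.0, 16.1, 1.60, 2.34 and 14.5 TPM in replicates 1 to 6, a mean of 12.3 ± 9.18 (SD, n = 6). Rescaled, it was 53.3, 108, 61.5, 47.8, 49.4 and 55.1, a mean of 62.5 ± 22.7 (SD, n = 6). The gap of replicates 4 and 5 to the others was thus smaller once rescaled, but on this scale it did not close. The rescaled TPM of the 7 markers, 62.8% of it PECAM1 on average, summed to 721 and 852 there, against 1209 to 1547 in the other 4 libraries. The gap depended on the scaling. Without the 74 most abundant named genes in the total, the marker median was 75.3 and 76.0 in replicates 4 and 5. It was then 70.0, 138, 82.4 and 71.1 in replicates 1, 2, 3 and 6. With a common median of named genes it was 12.6 and 13.5 in replicates 4 and 5, and 9.16, 18.7, 12.1 and 9.53 in the others. Replicate 2 had the highest median as deposited and rescaled, and on both scales that median was the value of TEK itself. Without replicate 2, the CV of the rescaled median was 0.1004 in place of 0.364.

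**Figure D2:**
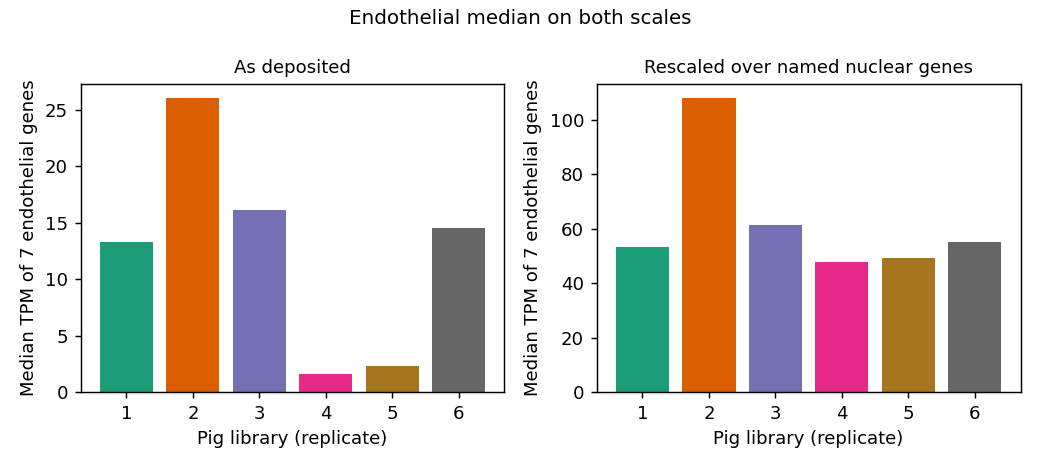
Median TPM of the 7 endothelial markers in each pig library (bars), as deposited on the left and rescaled over named nuclear genes on the right, both axes from 0. Replicates 4 and 5 are at 1.60 and 2.34 on the left and 47.8 and 49.4 on the right, and replicate 2 is highest in both.

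The markers were then compared with each other within a library, as the log2 of the rescaled TPM plus 1 less the median of the same gene over the 6 libraries. Replicate 2 held all 7 markers above their own median, and 65.4% of the 12130 named nuclear genes that averaged 1 or more rescaled TPM. The median deviation of the markers there was 0.51, against 0.10 over those genes. Of the 7 markers 6 were highest in replicate 2, against 27.0% of all genes, and 6 of 7 were highest there against 31.8% of all genes when replicates 1, 2, 3 and 6 alone were compared. A value at least 1.5-fold above the gene's own median was found in replicate 2 for TEK, KDR and ESAM, 3 of 7 markers, and in 11.4% of all genes. TEK and KDR were at least 2-fold above the median of replicates 1, 3 and 6, as were 4.11% of all genes. The markers did not move by one factor: in replicate 2 they ranged from 0.17 for PECAM1 to 1.04 for TEK on the log2 scale.

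In replicate 4 all 7 markers were below their own median, where 26.2% of all genes were above theirs. The median deviation there was -0.54 against -0.31 over all genes. In replicate 5 the markers below were 6 of 7, where 26.4% of all genes were above their own median, and the deviations were -0.46 against -0.36. Of the 7 markers 6 had their lowest value in replicate 4 or 5, against 66.4% of all genes. A value at least 1.5-fold below its own median was found for 3 of 7 markers in replicate 4 and 34.0% of all genes, and for 2 of 7 in replicate 5 and 37.4% of all genes. These counts lay close to the background. They also depended on the scaling: with the libraries set to a common median of named genes, or quantile normalized, 3 of 7 markers were lowest in replicate 4 or 5, against 40.4% and 38.4% of all genes, KDR, TEK, ERG and ESAM being the exceptions. As deposited it was 7 of 7, against 99.1% of all genes. The count of markers highest in replicate 2 was 5 of 7 on all 3 scales, where PECAM1 joined EMCN as an exception, against 17.5% of all genes with a common median, 17.4% with quantile normalization and 23.3% as deposited. In replicates 1, 3 and 6 the median deviations were -0.01, 0.01 and 0.08.

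**Figure D3:**
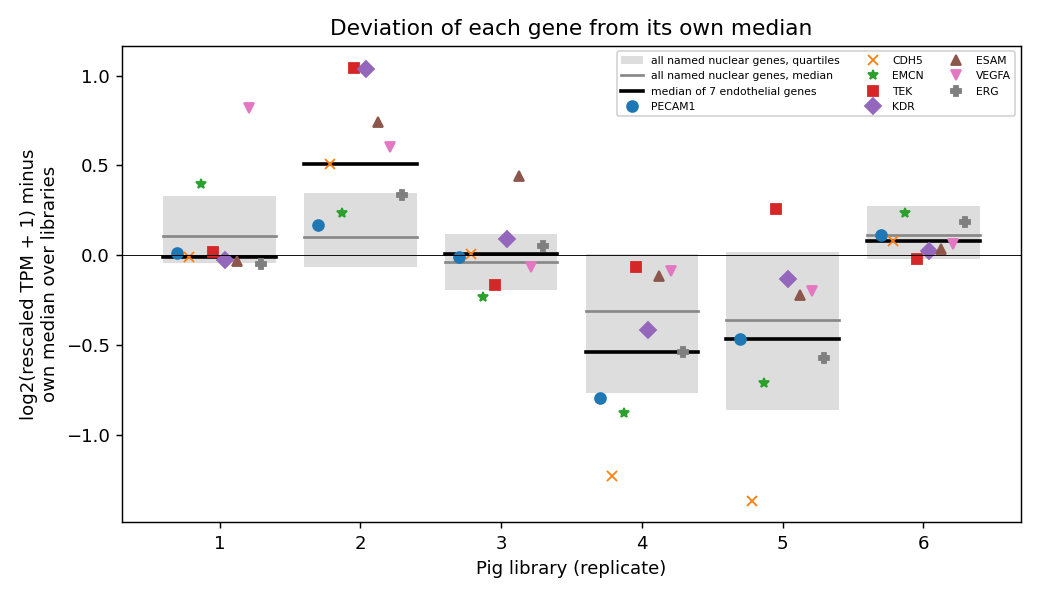
Deviation of each gene (symbols) from its own median over the 6 pig libraries, on the log2(rescaled TPM + 1) scale, with the median of the 7 markers (black line) and the median and quartiles of all named nuclear genes (grey). The markers sit above the grey line in replicate 2 (median 0.51 against 0.10), and CDH5 is lowest in replicates 4 and 5.

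Ratios of 2 genes within a library do not depend on any factor applied to the library. TEK over KDR was 0.985, 0.959, 0.799, 1.22, 1.26 and 0.925 in replicates 1 to 6, lowest in replicate 3 and highest in replicates 4 and 5. KDR over CDH5 was 0.338, 0.497, 0.362, 0.602, 0.809 and 0.328 in replicates 1 to 6, and TEK over CDH5 was 0.333, 0.476, 0.289, 0.736, 1.02 and 0.304. PECAM1 over CDH5 was 4.96, 3.86, 4.83, 6.68, 9.22 and 5.01. All 3 ratios were highest in replicates 4 and 5, where CDH5 was lower relative to the receptors and to PECAM1 than in any other library. VEGFA over KDR, the ligand over its receptor, was 1.57 in replicate 1 and 0.640 in replicate 2, the highest and lowest of the 6, and lay between 0.779 and 1.09 in the other 4.

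**Figure D4:**
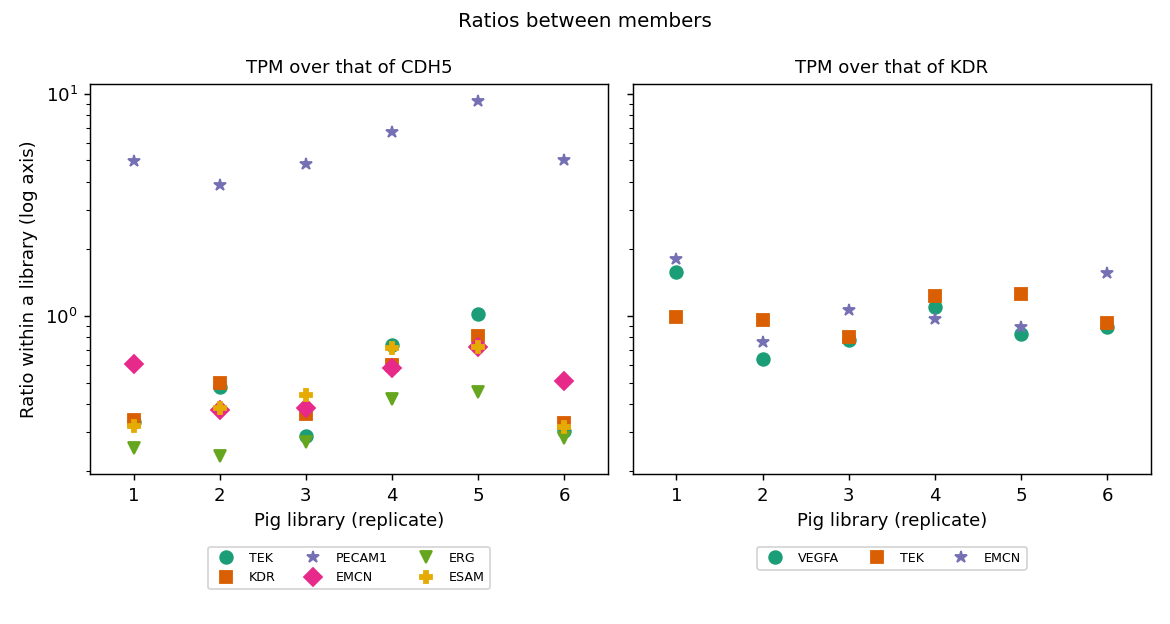
Ratio of TPM within each pig library (log axis) of 6 markers over CDH5 on the left and of VEGFA, TEK and EMCN over KDR on the right, each point 1 library. Ratios to CDH5 are higher in replicates 4 and 5 for TEK (0.736 and 1.02) and PECAM1 (6.68 and 9.22), and TEK over KDR stays near 1.

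Other endothelial genes were described in the same way, from lists chosen with earlier results of these libraries known, so their counts are no independent support for the markers. Over 7 lists of other endothelial genes, 92 of which averaged 1 or more rescaled TPM, 48 were highest in replicate 2 (52.2%, against 27.0% of all genes), and the median ratio of replicate 2 to the median of replicates 1, 3 and 6 was 1.20, against 1.02 over all genes. In the list of VEGF, angiopoietin and Notch signalling 14 of 23 were highest there. FLT1, the VEGF receptor 1, was at 58.9, 96.7, 41.1, 18.0, 14.8 and 46.0 rescaled TPM in replicates 1 to 6, and EFNB2, an arterial ephrin, at 38.2, 93.2, 35.6, 38.5, 32.0 and 42.6. The other leading genes of that list were NRP1 at 263 ± 86.1 (SD, n = 6), highest in replicate 6, PTPRB at 74.2 ± 24.5 and JAG1 at 64.8 ± 22.2, both highest in replicate 2. Among the genes of endothelial identity, 13 of 20 in the list of other endothelial genes were highest in replicate 2. The most abundant of that list were RAMP2 at 188 ± 79.3 and PLVAP at 151 ± 69.8, both highest in replicate 3, and S1PR1 at 117 ± 45.7, highest in replicate 2. Of the junction genes 6 of 13 were highest there, in a list led by CTNNB1 at 291 ± 54.7, PTPRM at 184 ± 61.6 and TJP1 at 162 ± 86.1, and of the transcription factors 5 of 14, in a list led by KLF2 at 126 ± 52.9, KLF4 at 103 ± 29.7 and ETS2 at 95.5 ± 43.1. By list, the median ratio of replicate 2 to the median of replicates 1, 3 and 6 was 1.33 for other endothelial genes. It was 1.18 for VEGF, angiopoietin and Notch signalling, 1.13 for junctions and 1.03 for transcription factors, against 1.02 over all genes. Whether the lists differ from each other was not tested.

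Of the 92 genes 11 were at least 2-fold higher in replicate 2, against 4.11% of all genes: CALCRL, EFNB2, FABP5, FLT1, GPR4, MEOX2, PROX1, RBP7, SELP, TCF15 and TFPI. They were picked after their values were seen. RBP7, a retinol-binding protein of fat capillaries, was at 42.0, 270.2, 41.8, 13.2, 29.4 and 27.5 rescaled TPM in replicates 1 to 6, the largest ratio of the 11 at 6.46. TCF15 and MEOX2, transcription factors that promote fatty acid uptake by capillary endothelium, were at 7.12, 16.9, 4.30, 8.97, 5.91 and 4.99 and at 98.1, 152, 64.6, 56.9, 87.5 and 63.1. FABP5, a fatty acid binding protein, was at 794, 1868, 971, 577, 666 and 905. Of the 10 genes of capillary lipid transfer 4 were thus at least 2-fold higher in replicate 2. The most abundant of that list, FABP4 and LPL, which adipocytes also make, and CAV1 were highest in replicates 5, 3 and 4. The leading genes of the lymphatic list, LYVE1 at 67.4 ± 39.6, PDPN at 48.6 ± 23.9 and MMRN1 at 21.7 ± 11.99 (SD, n = 6), were highest in replicate 6.

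**Figure D5:**
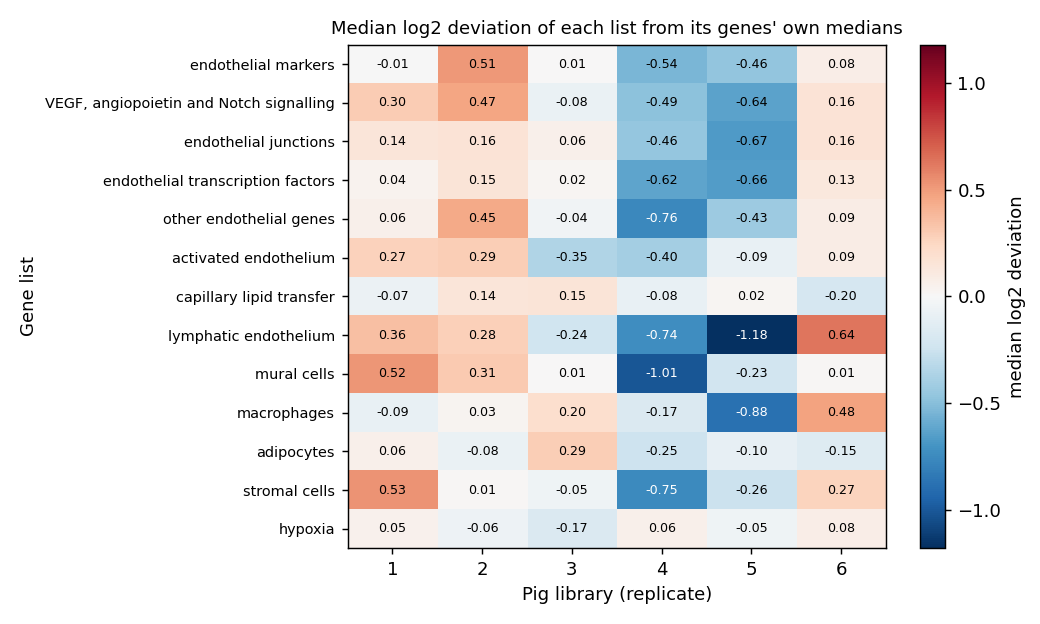
Median log2 deviation of the gene lists (rows) from their genes' own medians in each pig library (columns), on the log2(rescaled TPM + 1) scale, with the value printed in each cell. The keratinocyte, skeletal muscle, platelet and red cell lists are not drawn. Endothelial markers (0.51), VEGF, angiopoietin and Notch signalling (0.47) and other endothelial genes (0.45) are highest in replicate 2, with mural genes at 0.31 and adipocyte genes at -0.08 there. Activated endothelium (0.29, against 0.27 in replicate 1) and transcription factors (0.15, against 0.13 in replicate 6) are also highest there, by a small margin. The lymphatic list is highest in replicate 6 (0.64, against 0.28 in replicate 2). Junctions are highest in replicate 6 and capillary lipid transfer in replicate 3, each by a small margin over replicate 2.

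Mural cell genes, those of the smooth muscle and pericytes around vessels, had a median deviation of 0.31 in replicate 2 and 0.52 in replicate 1. Of 12 such genes 5 were highest in replicate 2 (41.7%, against 27.0% of all genes) and 5 in replicate 1. Their median ratio of replicate 2 to the median of replicates 1, 3 and 6 was 1.25, against 1.20 for the 92 endothelial genes. CNN1 was at 2.88 times that median and ACTA2 at 2.54 times, with ACTA2 at 248, 458, 180.5, 74.2, 105 and 173 rescaled TPM in replicates 1 to 6, and the skeletal muscle genes ACTA1 and TNNT3 were highest there at 6.36 and 2.79. No gene of 9 for adipocytes or 10 for stromal cells was highest in replicate 2. The share of TPM in mitochondrially encoded genes was also highest in replicate 2, at 21.2% against 10.8 to 17.4% in replicates 1, 3 and 6, 0.209% in replicate 4 and 0.298% in replicate 5. The part of these in the endothelial values was not tested, and in whole fat more endothelial cells and more RNA per endothelial cell cannot be told apart. PECAM1 is also carried by platelets and leukocytes. Of 6 platelet genes with a value, PPBP and ITGB3 had a mean rescaled TPM of 33.6 and 23.4, both highest in replicate 6, while GP9, GP1BB, TUBB1 and TREML1 were at 1.32, 0.536, 0.329 and 0.0548. Of 10 macrophage genes, the leukocyte list examined, 2 were highest in replicate 2, and their median was 66.2 ± 26.3 (SD, n = 6). Their part in the PECAM1 values was not tested.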

How the data were processed

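The authors quantified rRNA-depleted, stranded libraries with Kallisto 0.43.0 against Sscrofa11.1 and deposited gene-level TPM, each pig library summing to 1000000. TPM keeps no read counts, so no depth, interval or count test could be given. Genes were named from a table of Ensembl IDs and symbols. Each library was rescaled over its named nuclear genes (mitochondrially encoded genes left out). Deviations were taken on log2(rescaled TPM + 1), and the background was the 12130 named nuclear genes that averaged 1 or more rescaled TPM. All pig libraries formed 1 group, so values are described without tests, and no correlation across libraries was computed because replicates 4 and 5 stand apart. The computation was tested on simulated data. The genes, the 16 other gene lists and the comparisons were chosen with earlier results of these data known. All listed genes, the 3 most abundant of each list (5 for VEGF, angiopoietin and Notch signalling) and the 5 genes nearest in profile are named, except for a few items that are not reported here. Tools were Python 3.11.15, pandas 2.3.3, numpy 2.4.6 and matplotlib 3.10.9. Alternatives were other scalings, a pseudocount of 0.1, other background filters, VEGFA included, and each library left out.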

Additional observations from a re-analysis of the deposited data

Results flagged for a closer look

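Among 101 sets of 6 library values examined, 9 had 1 library far from the others relative to the whole range, and in all 9 it was replicate 2. Chance flags about 1 set in 20, and some of these genes were examined because replicate 2 was high, so the number of sets is no measure of support. Of the 9 sets, 3 were endothelial: KDR at 113 rescaled TPM against 40.4 to 57.7 in the others, TEK at 108 against 46.1 to 62.2, and the median of the 7 markers at 108 against 47.8 to 61.5. In replicate 2 that median was the TEK value itself, so it adds no separate observation. The others among vessel genes were EFNB2 at 93.2 against 32.0 to 42.6, RBP7 at 270.2 against 13.2 to 42.0, FABP5 at 1868 against 577 to 971 and TCF15 at 16.9 against 4.30 to 8.97. The skeletal muscle genes ACTA1, at 6.36 against 0.292 to 1.51, and TNNT3, at 2.79 against 0 to 0.519, were low throughout.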

How the results depend on the processing

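Of 126 alternative values for the main results, 115 counted as unchanged. The limit was 1 SD over the libraries for medians and deviations, and 1.5-fold for counts. For the CV it was a standard error of 0.239, taken from leaving each library out. Leaving out 1 of 6 libraries cannot move a mean by 1 SD, so those alternatives for the marker medians could not count as moved. The rescaled endothelial median of 62.5 was 12.6 with a common median of named genes and 12.1 with quantile normalization, which set another total, and 85.5 without the 74 most abundant named genes. Its CV of 0.364 ranged from 0.1004 without replicate 2 to 0.405 over the libraries left out in turn. The deviation in replicate 4, -0.54, was -0.067 with a common median, -0.12 with quantile normalization and -2.67 as deposited, and that in replicate 5, -0.46, was -0.026 with a common median and -2.33 as deposited. The deviation of 0.51 in replicate 2 lay between 0.27 and 0.56 under every scaling, pseudocount and choice of genes run, and was 0.46 over replicates 1, 2, 3 and 6 alone, a choice made after seeing the data. The 6 markers lowest in replicate 4 or 5 were 3 with a common median and 3 with quantile normalization. Levels of all 8 genes moved by more than 1 SD between the deposited and the rescaled values. No paired analysis was possible because the pig libraries form 1 group and no test was made. Because TPM keeps no depth, the precision of low values such as 0.945 TPM of ERG in replicate 4 is unknown.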

Other observations

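The named nuclear genes whose 6 deviations lay nearest to the median profile of the endothelial markers were not vessel genes. Among 8858 genes that averaged 10 or more rescaled TPM, the nearest included ATRX, a chromatin remodeller, HNRNPU, a nuclear RNA-binding protein, CBX5, a heterochromatin protein, and EOGT, with root-mean-square differences of 0.0543, 0.0634, 0.0748 and 0.0760 on the log2 scale. HNRNPU was at 377, 566, 360, 260 and 274 rescaled TPM in replicates 1 to 5 and 411 in replicate 6. The markers set this profile themselves, so their distances are not on equal terms with those of the other genes. Of the markers ERG was nearest, at 0.0966 with 0.181% of genes nearer, and PECAM1 was at 0.174. CDH5, at 0.464, and TEK, at 0.423, lay further from the profile than the median gene, at 0.416.

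The medians of the other lists were highest in different libraries. Adipocyte genes had a median of 584 ± 122 rescaled TPM (SD, n = 6), led by FABP4, ADIPOQ at 2992 ± 520.3 and PLIN1 at 1659 ± 353, and were highest in replicate 1. Stromal genes had a median of 163 ± 28.6, led by COL3A1, DCN and COL1A2, and were also highest in replicate 1. Macrophage genes, led by MRC1 at 154 ± 40.9, CD163 at 141 ± 49.5 and C1QA at 109 ± 23.1, had a median of 66.2 ± 26.3 and were highest in replicate 6, as were the hypoxia genes, at 152 ± 39.9, led by PGK1 at 410 ± 225, ENO1 at 387 ± 69.4 and EPAS1 at 296 ± 211. Mural genes had a median of 46.3 ± 15.9, led by TAGLN at 279 ± 37.8, ACTA2 at 206 ± 137 and RGS5 at 204 ± 78.1. The mural median was nearly the same in replicates 2 and 1, at 62.1 and 61.5, and lowest in replicate 4. Genes of activated endothelium had a median of 37.1 ± 12.5, led by VCAM1, highest in replicate 4 at 536, and by PLAT at 163 ± 28.8. The medians of the other vessel lists were 26.9 ± 9.06 for VEGF, angiopoietin and Notch signalling, 96.1 ± 29.1 for junctions, 57.9 ± 16.2 for transcription factors, 58.0 ± 18.1 for other endothelial genes, 511 ± 63.0 for capillary lipid transfer and 7.50 ± 4.70 for the lymphatic list. Red cell genes had a median of 3.80 ± 1.33, led by HBB at 103 to 955 (highest in replicate 4), SLC4A1 and ALAS2. Platelet genes had a median of 0.990 ± 0.378, led by PPBP at 33.6 ± 16.8, ITGB3 at 23.4 ± 10.4 and GP9. Keratinocyte genes, led by DSG3, KRT10 and TP63, had a median of 0.570 ± 0.251, highest in replicate 2, and skeletal muscle genes, led by ACTA1, CKM and TNNT3, one of 1.23 ± 0.903, also highest in replicate 2.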
